A study of Mus musculus with 6 samples.

Results

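The MHC class II antigen presentation genes were followed on 6 oligonucleotide arrays of stria vascularis, the vascularised epithelium in the lateral wall of the cochlea. They were chosen by symbol: 9 genes were listed, and every probe set annotated with exactly 1 of those symbols was taken. A probe set is a set of short oligonucleotides that together measure 1 transcript, mostly close to its 3′ end. In all, 17 probe sets stood for 8 of the 9 genes, out of 18193 genes with a probe set of their own. H2-DMb1 had none, because its 2 probe sets are annotated to both H2-DMb1 and H2-DMb2 and cannot be assigned. Total RNA came from mice at postnatal day 10 that were heterozygous (replicates 1, 3 and 5) or knockout (replicates 2, 4 and 6) for Slc26a4, which encodes the anion exchanger pendrin. All 6 samples thus share the tissue, the age and at least 1 altered Slc26a4 allele, and no wild-type group was measured. The labels give neither the strain, the sex, the kind of knockout allele nor whether animals were pooled, so p-values measure only the spread between these samples. The H2 genes differ in sequence between mouse strains, and whether that affects binding to their probes was not tested.

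MHC class II molecules are pairs of an alpha and a beta chain that carry peptides from engulfed proteins to the surface of antigen-presenting cells, where CD4 T cells read them. The invariant chain (Cd74) escorts new pairs to the endosome and blocks their groove, and the H2-DM pair then helps to exchange its remnant for a peptide. Ciita, the class II transactivator, is recruited to a shared promoter module of the chain, Cd74 and H2-DM genes, and Cd86 and Cd83 are surface proteins of activated antigen-presenting cells. In the cochlear lateral wall, resident macrophages lie along the strial capillaries. In RNA of a whole tissue, fewer cells of a type and less RNA per cell cannot be told apart.

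The arrays had been scaled to the same trimmed mean signal of 500.002 before deposit. Knockout replicate 4 had the lowest mean correlation with the other arrays, 0.929 against 0.966 to 0.970 for the rest (log2 scale, tested probe sets). Slc26a4 lay between 220.8 and 1006 in heterozygous and between 75.5 and 154 in knockout samples. The signals of the strial marginal cell markers summed to 30866 to 36125 over the 6 arrays, and those of the basal cell markers to 32589 to 36912, so markers of both cell types were present on every array. Signals are on a linear scale, and differences are of log2(signal + 16), knockout minus heterozygous. Of 27022 probe sets tested with limma over all genes, 1 was called at an adjusted p under 0.05 (0.0037%), and that was Fgf18, which is no member.

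Class II genes are known to share a promoter layout in which an X box, bound by the RFX complex, is followed by a Y box, bound by NF-Y. Promoter windows from RefSeq ran from 250 bases before to 50 after a gene's start. They were examined for 4 of the 9 members (H2-Aa, H2-Eb1, H2-DMa and H2-DMb1). The windows of the other members, among them H2-Ab1 and Cd74, were not examined, so whether they hold these boxes was not tested. The windows of H2-Aa and H2-Eb1 are shown with those of H2-DMa, a choice made with their array values known. Capitals mark the X box core searched, GNAAC, and the Y box searched, TGATTGG, where the core lies 10 to 40 bases upstream of the Y box.
H2-Aa, RefSeq GRCm38.p6, chr17:34287774-34288073, minus strand: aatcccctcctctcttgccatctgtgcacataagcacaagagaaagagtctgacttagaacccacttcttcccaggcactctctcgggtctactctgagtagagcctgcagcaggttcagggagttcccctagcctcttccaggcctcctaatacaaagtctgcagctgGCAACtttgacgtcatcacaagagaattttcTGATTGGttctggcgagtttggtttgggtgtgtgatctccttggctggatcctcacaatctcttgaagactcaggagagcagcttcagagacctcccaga
H2-Eb1, RefSeq GRCm38.p6, chr17:34305617-34305916, plus strand: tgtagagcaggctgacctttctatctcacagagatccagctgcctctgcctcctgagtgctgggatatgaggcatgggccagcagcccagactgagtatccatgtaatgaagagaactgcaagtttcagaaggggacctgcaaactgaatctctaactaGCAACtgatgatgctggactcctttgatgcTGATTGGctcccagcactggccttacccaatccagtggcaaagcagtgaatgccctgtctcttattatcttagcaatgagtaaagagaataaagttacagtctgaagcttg
H2-DMa, RefSeq GRCm38.p6, chr17:34122582-34122881, plus strand: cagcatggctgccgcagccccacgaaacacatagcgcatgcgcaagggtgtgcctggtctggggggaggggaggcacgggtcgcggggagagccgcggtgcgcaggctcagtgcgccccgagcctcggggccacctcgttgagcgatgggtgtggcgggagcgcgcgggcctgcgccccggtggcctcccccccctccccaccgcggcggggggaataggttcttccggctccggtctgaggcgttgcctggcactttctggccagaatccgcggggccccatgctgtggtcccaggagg
H2-DMa, RefSeq GRCm38.p6, chr17:34125268-34125567, plus strand: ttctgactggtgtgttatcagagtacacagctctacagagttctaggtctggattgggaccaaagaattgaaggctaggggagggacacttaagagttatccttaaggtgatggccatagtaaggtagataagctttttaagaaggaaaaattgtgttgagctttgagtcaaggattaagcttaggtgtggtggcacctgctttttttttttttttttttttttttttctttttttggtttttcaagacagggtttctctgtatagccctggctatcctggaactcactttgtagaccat
In H2-Aa the core began 81 bases and the Y box 50 bases before the start, with 26 bases between them. In H2-Eb1 they began 91 and 61 bases before the start, with 25 bases between. The H2-DMb1 window held the pair as well, with 26 bases between, and neither H2-DMa window held the Y box letters or the pair. The H2-DMa windows lie at different annotated starts, and whether either start is used in this tissue was not tested. Only these windows were searched, so a pair elsewhere near H2-DMa would have been missed. Among other class II genes, the windows of H2-Oa, H2-Ob and H2-Eb2 also held the pair, with 26, 23 and 25 bases between. That of H2-DMb2 held the Y box letters but not the pair. On the arrays, r with the mean of the block described below was 0.412 for H2-Oa, 0.721 for H2-Ob and 0.089 for H2-Eb2 (6 arrays, the last 2 under the filter on low signal). A link between the pair and the array values was not tested. Searched on both strands, GNAAC was in 84.8% of all 32851 promoter windows, TGATTGG in 7.82% and the spaced pair in 0.828%. The pairs named above were found on the strand of the gene, where 0.39% of all windows held the pair. The letters were set after these sequences had been read, and a match is a description, not a bound site.

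The chains and the invariant chain formed a block that was low on average in knockout samples, but the genotypes overlapped in every probe set of the block. H2-Aa, the alpha chain of the I-A molecule, gave 595, 1303 and 1201 in heterozygous replicates 1, 3 and 5 and 263, 380 and 909 in knockout replicates 2, 4 and 6 on its brightest probe set (1435290_x_at). Knockout replicate 6 therefore lay above heterozygous replicate 1, and knockout replicates 2 and 4 lay below all others. The log2 difference was -1.09 ± 0.43 (SE, 95% interval -2.04 to -0.13), with a limma adjusted p = 0.382. H2-Ab1, the beta chain of I-A, gave 262, 594 and 614 in heterozygous and 146, 216 and 408 in knockout samples in the same order of replicates. The split was the same as for its partner, with a log2 difference of -0.91 ± 0.40 (SE) and a limma adjusted p = 0.419.

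H2-Eb1, the beta chain of the I-E molecule, gave 305, 867 and 754 in heterozygous and 187, 168 and 558 in knockout samples, with a log2 difference of -1.12 ± 0.48 (SE, limma adjusted p = 0.411). Cd74, the invariant chain, gave 1119, 2025 and 1794 in heterozygous and 619, 715 and 1549 in knockout samples, with a log2 difference of -0.84 ± 0.33 (SE, limma adjusted p = 0.387). In both genes knockout replicate 6 again exceeded heterozygous replicate 1 and fell short of heterozygous replicates 3 and 5. For each of the 4 genes p was 0.2 by an exact permutation test (two-sided), where 3 against 3 samples allow no value under 0.1.

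**Figure D1:**
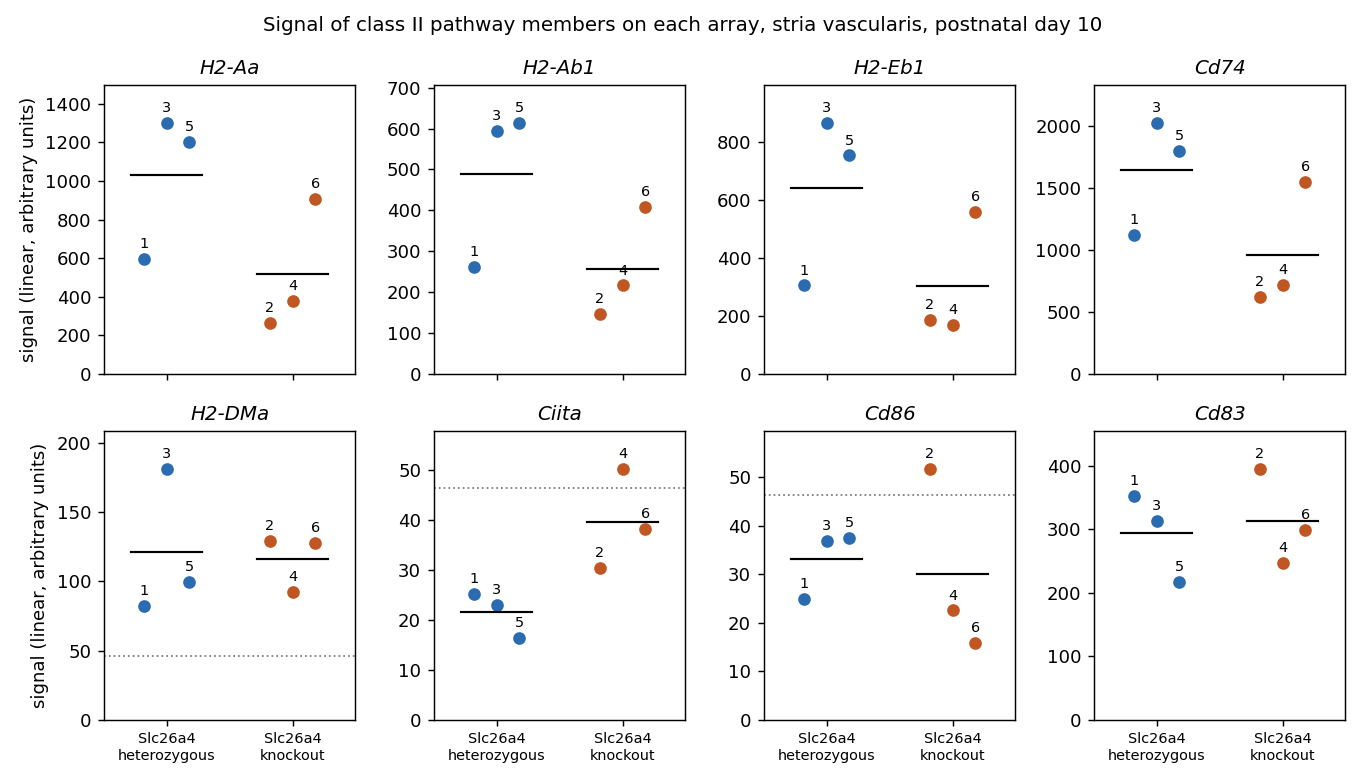
Linear signal (y axis, arbitrary units, from 0) of the brightest probe set of 8 member genes in heterozygous (blue) and knockout (orange) samples; points are arrays labelled with their replicate number, black lines are group means, and the dotted line in the panels of dim genes is the filter at 46.3. H2-Aa, H2-Ab1, H2-Eb1 and Cd74 repeat 1 arrangement, with knockout replicate 6 (909 for H2-Aa) above heterozygous replicate 1 (595), while the lower 4 panels do not.

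In all 4 genes of the block the fold between genotypes was below the highest over lowest ratio within either genotype. A fold of means and a range over 3 arrays are unlike measures, so this is a description and not a test. For H2-Aa the heterozygous over knockout fold was 2.13 on the offset log2 scale, whereas the highest array exceeded the lowest by 2.19-fold within the heterozygous and by 3.46-fold within the knockout samples in linear signal. For H2-Ab1 the fold was 1.88, against 2.35 and 2.80 within the groups. For H2-Eb1 it was 2.17, against 2.84 and 3.31. For Cd74 it was 1.79, against 1.81 and 2.50. The within-group SD of the 8 tested probe sets of the block ran from 0.59 to 1.04 on the log2 scale, where the median over all tested probe sets was 0.25, which put them between the 92.9th and the 99.7th percentile of spread.

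The other tested probe sets of H2-Aa and H2-Ab1 repeated the arrangement. For H2-Aa, 1438858_x_at gave 323, 949 and 860 in heterozygous and 138, 176 and 712 in knockout samples (log2 difference -1.24, limma adjusted p = 0.436), and 1452431_s_at had a log2 difference of -0.95 (limma adjusted p = 0.482). For H2-Ab1, 1451721_a_at had -1.24 (limma adjusted p = 0.388) and 1425477_x_at -0.94 (limma adjusted p = 0.433). The fourth H2-Aa probe set, 1443783_x_at, was under the filter on all 6 arrays (8.11 to 31.8) and was not tested, and there knockout replicate 6 (26.6) also exceeded heterozygous replicate 5 (23.9). Of the 17 member probe sets, 5 have the x_at and 2 the s_at suffix, by which the array maker marks probes that may also match other transcripts. The cross-matching of these H2 probe sets was not tested.

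Over the block, 5 of 8 tested probe sets had an unadjusted p under 0.05, all lower, as did 2.48% of all tested probe sets in that direction. The 8 probe sets measure only 4 genes. Over the same 6 arrays r between them ran from 0.918 to 0.995, so they are not independent readings. The count of 5 also depended on the model. With no variance trend it was 0 of 8 at the same log2 differences, and with median centring or array weights it was 8 of 8. Neither these 8 nor the other 3 tested member probe sets passed after adjustment. So 0 of 11 member probe sets were called by limma, with 5 of 11 at the unadjusted p. Single arrays decided the size: without knockout replicate 6 the 8 log2 differences lay between -1.94 and -1.24 with 8 of 8 at an unadjusted p under 0.05 and a lowest limma adjusted p = 0.147. Without heterozygous replicate 1 they lay between -1.72 and -1.10, again with 8 of 8. Without any 1 of the other 4 arrays, 0 of 8 had an unadjusted p under 0.05. The highest of the 8 was then -0.55 without knockout replicate 2, -0.67 without heterozygous replicate 3, -0.69 without knockout replicate 4 and -0.71 without heterozygous replicate 5.

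**Figure D2:**
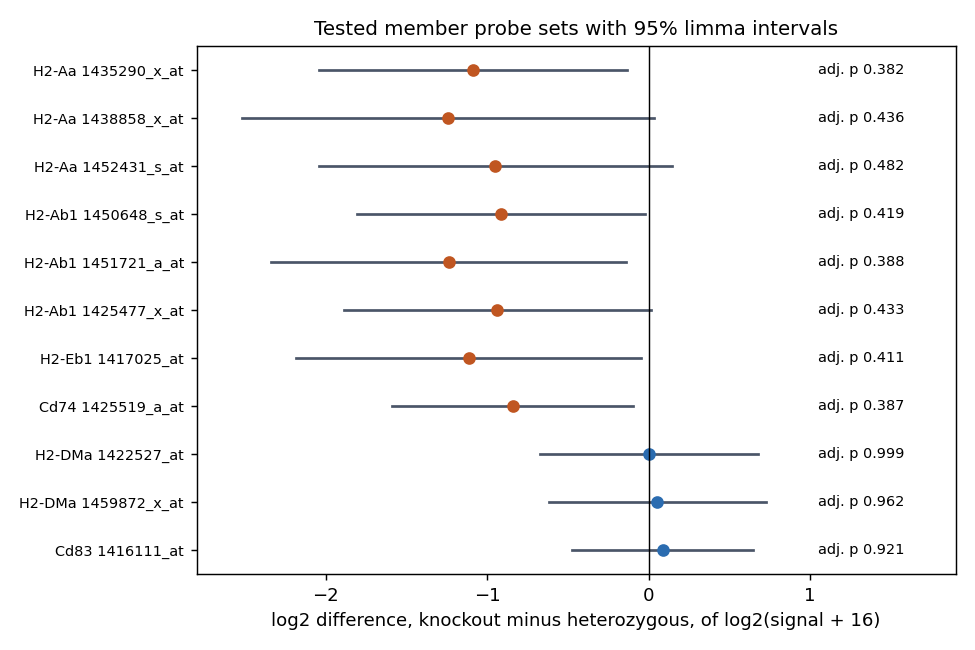
Log2 difference of log2(signal + 16), knockout minus heterozygous (x axis), of the 11 tested member probe sets (y axis); points are estimates, bars are 95% limma intervals, orange marks a difference below 0 and blue one above 0, and the adjusted p over all 27022 probe sets stands at the right. The 8 probe sets of H2-Aa, H2-Ab1, H2-Eb1 and Cd74 lie between -1.24 and -0.84, and the H2-DMa and Cd83 probe sets lie near 0.

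The loading and costimulation genes did not share this arrangement. H2-DMa, the alpha chain of the peptide exchange factor, gave 82.2, 181 and 99.7 in heterozygous and 129, 92.2 and 127 in knockout samples. Heterozygous replicate 3 was highest and heterozygous replicate 1 lowest, with the knockout samples between them, and the log2 difference was 0.0012 ± 0.30 (SE, 95% interval -0.67 to 0.68, limma adjusted p = 0.999). Its dimmer probe set, 1459872_x_at, had a mean of 51.4, just above the filter, and a log2 difference of 0.05. Cd83, which stabilises class II and Cd86 at the cell surface, gave 353, 314 and 218 in heterozygous and 396, 247 and 299 in knockout samples. Its groups overlapped between 247 and 353 (log2 difference 0.09 ± 0.25 SE, 95% interval -0.47 to 0.65, limma adjusted p = 0.921). The sign of the H2-DMa and Cd83 differences turned under other scalings.

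Both of the remaining genes lay under the filter of 46.3 in mean signal and have no adjusted p in the main setting. Ciita gave 25.1, 23.03 and 16.3 in heterozygous and 30.3, 50.2 and 38.2 in knockout samples on its brightest probe set, so the knockout samples were higher without overlap, the opposite side from the chains. Among the 27022 tested probe sets the groups did not overlap for 17.1%. The median signal over all probe sets was 76.8 to 82.3 on heterozygous and 88.8 to 104.8 on knockout arrays, also without overlap. The log2 difference of Ciita was 0.56 as scaled at deposit, 0.43 with quantile scaling and 0.36 with median centring. The part of the array medians in it was not tested. With no filter, the limma adjusted p of Ciita was 0.521. Its other probe sets lay between 1.12 and 24.5, and their groups overlapped. Cd86, the ligand of CD28 on T cells, gave 24.9, 36.9 and 37.5 in heterozygous and 51.8, 22.6 and 15.9 in knockout samples, where the highest and the lowest value both belonged to knockout samples. Over all 8 measured genes, 5 were lower and 3 higher in knockout samples with a median log2 difference of -0.50. Of 12421 genes tested, 56.9% were lower and the median was -0.04.

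Across the 6 arrays the block was tightly ordered. Pearson's r between the brightest probe sets of H2-Aa, H2-Ab1, H2-Eb1 and Cd74 ran from 0.962 to 0.995 over 6 pairs. These genes share the arrays, and the chain genes may share cross-matching probes, so r is a description. With the mean of the block, r was 0.397 for H2-DMa, -0.429 for Cd83, -0.130 for Cd86 and -0.607 for Ciita. The mean deviation of the block from its own average was 0.91 and 0.80 (log2) in heterozygous replicates 3 and 5 and 0.40 in knockout replicate 6. It was -0.23 in heterozygous replicate 1, -1.08 in knockout replicate 2 and -0.81 in knockout replicate 4. In the RefSeq gene order H2-Ab1, H2-Aa and H2-Eb1 follow each other with 0 protein-coding genes between neighbours, whereas Cd74 lies on another chromosome.

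Leukocyte markers were present on all arrays and followed the block only in part, with a median r with its mean of 0.268 over 7 tested all-leukocyte genes and of 0.030 over 17 tested macrophage genes. The summed signal of 8 genes expressed by all leukocytes was 4130 to 5649 in heterozygous and 4100 to 5901 in knockout samples, and that of 19 macrophage genes was 10368 to 13526 and 10981 to 15207. Both sums were highest in knockout replicate 2, where H2-Aa, H2-Ab1 and Cd74 were lowest. Ptprc, the leukocyte phosphatase CD45, gave 110, 171 and 152 in heterozygous and 131, 136 and 179 in knockout samples. Csf1r, the macrophage growth factor receptor, gave 2071, 3241 and 2929 in heterozygous and 2986, 2395 and 3014 in knockout samples. Neither gene separated the genotypes (log2 differences 0.05 and 0.04), and r with the block was 0.654 and 0.454. Vav1, a signalling protein of blood cells, had a log2 difference of -0.41 and r = 0.716, the highest of the 7 tested all-leukocyte genes. The lowest was -0.298 for Rac2, with a log2 difference of 0.21. The bright genes Laptm5, Cd53 and Coro1a had r = 0.355, 0.268 and -0.154. Over the 17 tested macrophage genes r ran from -0.758 (Cd14) to 0.559 (C1qb). The summed signal of 7 T cell genes, 5 of them under the filter, was 549 to 739 in heterozygous and 443 to 535 in knockout samples without overlap. Among single tested probe sets the groups did not overlap for 17.1%. Most of that sum was Cd2, whose own groups overlapped (543, 557 and 397 in heterozygous against 391, 287 and 398 in knockout samples). Cd2 and Cd8a, the 2 tested, had log2 differences of -0.46 and -0.24. Of 17 tested macrophage genes 13 were higher and 4 lower, with 0 called and a median of 0.08. Cd68, a lysosomal glycoprotein, was higher in the knockout samples without overlap (153, 186 and 174 against 279, 227 and 227, limma adjusted p = 0.419). Its r with the block was -0.580. Values were also taken relative to the mean of the tested all-leukocyte genes of the same array, a setting chosen after seeing the data. The log2 differences were then -1.06 for H2-Aa, -0.89 for H2-Ab1, -1.09 for H2-Eb1 and -0.82 for Cd74. This setting shifts the difference of every gene by the same amount. It does not account for leukocyte content, whose part was not tested.

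**Figure D3:**
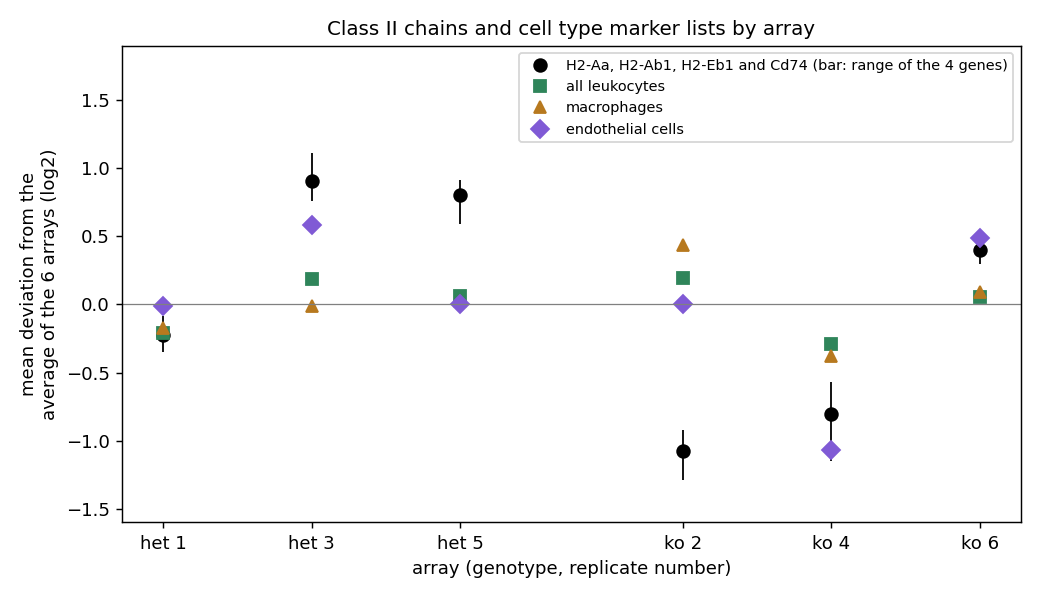
Mean deviation from the average of the 6 arrays (y axis, log2) on each array (x axis) of the class II block (black, bar from the lowest to the highest of 4 genes) and of 3 marker lists over their tested genes. The block spans from -1.08 in knockout replicate 2 to 0.91 in heterozygous replicate 3, while the all-leukocyte list stays between -0.29 and 0.19.

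Markers of specialised antigen-presenting cells were mostly dim. Of 10 dendritic cell genes on the array 7 were under the filter, among them Itgax, the integrin CD11c, at 0.617 to 23.9, and Flt3, a cytokine receptor, at 8.89 to 26.9. The 3 tested were brighter. Sirpa gave 3294, 3300 and 3289 in heterozygous and 2711, 2851 and 3282 in knockout samples (log2 difference -0.16, limma adjusted p = 0.588). Zbtb46 had a log2 difference of 0.28 and Itgae -0.13. For Sirpa, Zbtb46 and Itgae r with the block was 0.878, 0.046 and 0.593. Of 7 B cell genes 6 were under the filter, and the other, Ighm, gave 49.0 to 105. Endothelial genes moved with the block in part: their mean deviation was 0.59 in heterozygous replicate 3, 0.49 in knockout replicate 6 and -1.07 in knockout replicate 4, but 0.0024 in knockout replicate 2 where the block was lowest. Their summed signal was 7260 to 11634 in heterozygous and 3500 to 10519 in knockout samples, 9 of 10 tested genes were lower and 0 were called. Erythrocyte genes had the highest median r with the block of all lists (0.741, 2 tested genes, Alas2 and Slc4a1). Their mean deviation was lowest in knockout replicate 2 (-0.82) and highest in heterozygous replicate 5, with knockout replicate 6 (0.22) above heterozygous replicate 1 (-0.22), and their summed signal was 137 to 315 in heterozygous and 76.7 to 169 in knockout samples. Granulocyte sums were 1043 to 3666 and 331 to 1929, and of these genes Ngp, a neutrophil granule protein, had a log2 difference of -1.26 and r = 0.648. The part of these cells in the class II values was not tested.

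Other genes of the pathway were taken from whole lists by role, drawn up with earlier results of these data known, and 0 of them were called. Among the other class II chains, H2-Oa, which with H2-Ob restrains H2-DM, gave 23.3 to 65.2 in heterozygous and 35.1 to 61.7 in knockout samples (log2 difference 0.17). H2-DMb2, the other beta chain of H2-DM, had -0.16, while H2-Ob, H2-Eb2 and H2-Ea were under the filter. H2-Ea, the alpha chain that pairs with H2-Eb1 and is a pseudogene in the RefSeq strain, gave at most 23.04 on its brightest probe set.

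Of 6 processing enzymes 5 were lower and 1 higher, with a median log2 difference of -0.05. Ctss, the cathepsin that trims the invariant chain, gave 2885, 4477 and 4147 in heterozygous and 3367, 1960 and 3253 in knockout samples, a log2 difference of -0.44 ± 0.22 (SE, limma adjusted p = 0.479). It shared with the block the high heterozygous replicates 3 and 5 but not the low knockout replicate 2. Ifi30, the lysosomal thiol reductase, was lower without overlap by a small amount (6824 to 7130 against 6278 to 6585, log2 difference -0.11, limma adjusted p = 0.608). Ctsb, Ctsl, Lgmn and Ctsh had log2 differences from -0.06 to 0.10.

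Of 16 tested genes of class II transcription 11 were lower and 5 higher, with a median log2 difference of -0.04. The DNA-binding factors of the promoter module lay close to 0: Rfxap had -0.14, Rfxank 0.12, Nfya -0.04, Nfyb -0.05, Nfyc 0.17 and Creb1 -0.09. Rfx5, the RFX subunit that contacts Ciita, had 0.27 (limma adjusted p = 0.488). Irf1, an interferon-induced factor, gave 248 to 300 in heterozygous and 327 to 349 in knockout samples without overlap (log2 difference 0.33, limma adjusted p = 0.530). Ifngr1 and Ifngr2, the chains of the interferon gamma receptor, had -0.06 and -0.44, and Jak1 and Jak2, their kinases, -0.31 and -0.18. The coactivators Crebbp, Ep300 and Kat2b lay between -0.10 and 0.02. Irf8, a factor of myeloid cells, had -0.02, and Irf4 and Spi1 were under the filter.

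Among turnover genes, Marchf8, a ubiquitin ligase of surface proteins, had -0.17 and Sppl2a, the protease that clears the Cd74 stub, -0.02, while Marchf1 was under the filter. Of 6 tested costimulation genes 3 were lower and 3 higher. Cd274, the inhibitory ligand PD-L1, gave 66.4, 109 and 101 in heterozygous and 62.6, 60.2 and 74.3 in knockout samples (log2 difference -0.38, limma adjusted p = 0.605). Its order resembled that of the block, with r = 0.917 over 6 arrays. Cd80 had 0.31, Icosl 0.34, Icam1 0.21, Cd40 -0.20 and Cd48 -0.21, and Tnfsf4 and Pdcd1lg2 were under the filter. Class I presentation, which serves CD8 T cells, had 11 of 15 tested genes lower, a median of -0.08 and 0 called. B2m, the class I light chain, had 0.10, Calr, the chaperone calreticulin, 0.15, and Erap1, a peptide-trimming protease, -0.46.

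**Figure D4:**
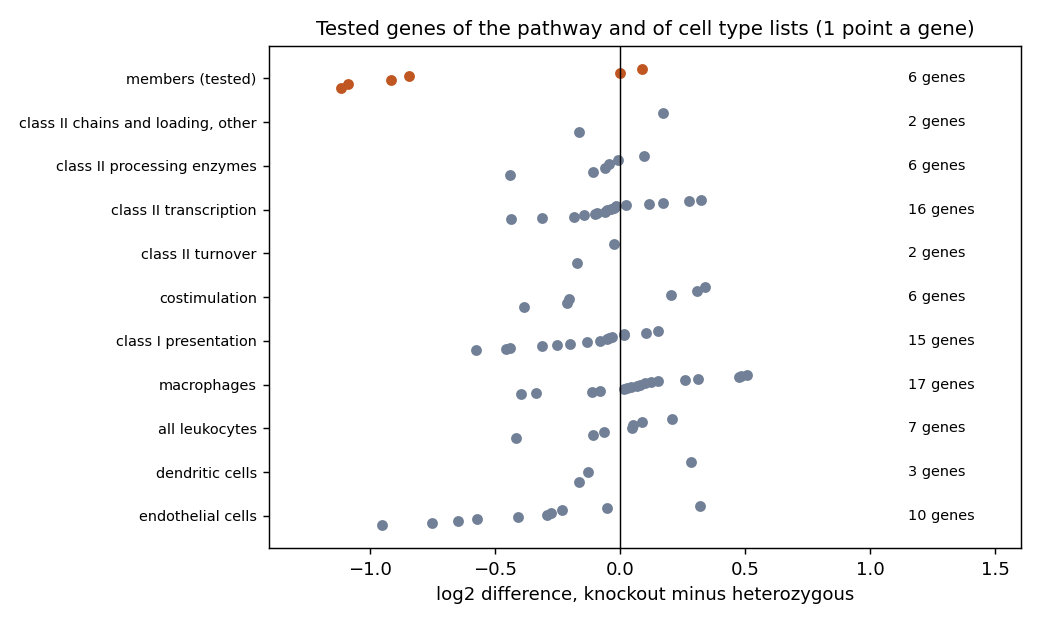
Log2 difference, knockout minus heterozygous (x axis), of each tested gene (1 point a gene, by its brightest tested probe set) in the member set (orange) and in lists of the pathway and of cell types (grey), with the number of genes at the right. The 4 leftmost orange points are H2-Eb1 (-1.12), H2-Aa (-1.09), H2-Ab1 (-0.91) and Cd74 (-0.84), and the points of the processing, transcription and costimulation lists lie between -0.44 and 0.34. The endothelial list reaches -0.95 (Emcn) and the class I list -0.58, both within the range of the members, and granulocyte genes are not plotted.

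Among genes outside the set, the 6 whose log2 values over the 6 arrays were most like the mean of the block were Rnf5, Hnrnpa0, Tmem216, Igfbp3, Zmpste24 and Tgfbr3, with Pearson's r from 0.994 to 0.999. Their ranges differed. Igfbp3, a carrier of insulin-like growth factors, gave 756, 1499 and 1397 in heterozygous and 398, 438 and 1051 in knockout samples, a span like that of the chains. Rnf5, a membrane-anchored ubiquitin ligase, gave only 1270, 1513 and 1469 against 1122, 1169 and 1397. An r of at least 0.95 was reached by 194 of the 22848 probe sets compared (0.849%).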

How the data were processed

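Total RNA of stria vascularis was isolated with Qiagen reagents, amplified by the Ovation protocol of NuGEN and hybridised to Affymetrix mouse arrays, per the labels' protocols. The authors deposited a linear signal intensity per probe set, computed in GCOS per the submitters' processing notes, whose version is not given in the sources used here. They carry no detection call. Of 45101 probe sets, 64 controls were left out. Probe sets were named from the platform annotation: 34945 had 1 symbol, 932 several and 9160 none.

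Groups came from the sample titles. Values were analysed as log2(signal + 16). Probe sets at or under the 40th percentile of mean signal (46.3) were removed. limma 3.58.1 in R 4.3.3 (lmFit, eBayes with a variance trend, two-sided) was fitted to the remaining 27022, with Benjamini-Hochberg adjustment over all of them and a threshold of 0.05. The fit was tested on simulated data. The number of arrays limits the precision. A gene is given by its brightest probe set, and every member probe set is given or counted. The text names all members, the pathway lists, up to 3 leading genes of other lists, and the 6 genes of most like pattern. Ptprc, Itgax, Flt3, Camp, Ltf, Mpo and Elane fall outside this rule and were named after their values were seen. Members and lists were chosen with earlier results of these data known. Cell type lists were dendritic cells, macrophages, B and T cells, all leukocytes, granulocytes, erythrocytes, endothelial cells and strial intermediate, marginal and basal cells. Promoters came from RefSeq, GRCm38.p6. Python 3.11.15 with matplotlib 3.10.9 drew the figures. Alternatives were offsets of 1 and 64, a floor of 32, quantile, cyclic loess and median scaling, no filter or a 60th percentile filter, other variance models, array weights, averaging each gene's probe sets and leaving out each array. Values relative to the all-leukocyte genes were added after seeing the data.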

Additional observations from a re-analysis of the deposited data

How the results depend on the processing

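H2-Aa, H2-Ab1, H2-Eb1 and Cd74 had lower means in knockout samples in all 19 alternatives, with log2 differences from -1.58 to -0.71, -1.30 to -0.60, -1.64 to -0.82 and -1.24 to -0.59. Not all 19 could change these values. The other filters and variance models leave a log2 difference as it was, and averaging probe sets leaves that of H2-Eb1 and Cd74. The setting relative to leukocyte genes is counted too and was chosen after seeing the data. The limma adjusted p of these genes ranged from 0.147 to 0.895, and 0 member probe sets were called in any of 17 other fits. The median over the 8 genes ran from -0.70 to -0.38 (from -0.69 to -0.38 without 1 array), and 4 to 7 of them were lower. Median centring moved the median of all tested probe sets to -0.20. H2-DMa (-0.20) then lay at that median and Cd83 (-0.11) above it, both turned in sign, and 7 of 8 genes were lower, against 5 of 8 as scaled at deposit. H2-DMa also turned with an offset of 64 (-0.0087) and with quantile (-0.19) and cyclic loess (-0.12) scaling. Leaving out single arrays moved H2-DMa between -0.21 and 0.30 and Cd83 between -0.11 and 0.24. The cause was not tested. For Ciita, near background, an offset of 1 gave 0.84, an offset of 64 gave 0.27 and a floor of 32 gave 0.30. No paired analysis was possible because the groups share no replicate numbers. With no detection calls, signals near the filter cannot be told from background.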

Other observations

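Other cell type lists are given as values. Granulocyte genes, with 4 tested, were all lower with 0 called and a median log2 difference of -0.71. S100a8, a calcium-binding protein of neutrophils, gave 256, 448 and 1329 in heterozygous replicates 1, 3 and 5 and 672, 119 and 389 in knockout replicates 2, 4 and 6, with r = 0.453 with the class II block. Ngp had -1.26, a larger difference than the brightest probe set of any chain gene, and r = 0.648. The other tested granulocyte genes, S100a9 and Camp, had -0.70 and -0.33, with r = 0.444 and 0.048. Ltf, Mpo and Elane, all under the filter, had r = 0.907, 0.641 and 0.629. The 2 tested erythrocyte genes, Alas2 and Slc4a1, had -0.56 and -0.54, with r = 0.764 and 0.717. Strial intermediate cell genes had a median of -0.13 over 7 tested genes with 6 lower, marginal cell genes -0.03 over 6 with 4 lower, and basal cell genes 0.05 over 5 with 2 lower, each with 0 called.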
